A study of Xenopus laevis with 3 samples.

Results

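Steroid hormones are made from cholesterol in a fixed order of steps, and the genes described here encode the enzymes and the carrier of that order. *star* encodes the protein that moves cholesterol into mitochondria, *cyp11a1* the side-chain cleavage enzyme that makes pregnenolone, *cyp17a1* the hydroxylase and lyase that leads to androgens, and *cyp19a1* the aromatase that turns androgens into estrogens. *Xenopus laevis* is an allotetraploid frog, so a gene can have an L and an S homeolog. The genes were chosen by name, as both homeologs of these 4 genes. Of the 8 names, 5 were found among 44454 named features, namely *star.L*, *star.S*, *cyp11a1.S*, *cyp17a1.L* and *cyp19a1.L*, and the other 3 were not analysed here. In many vertebrates, theca or interstitial cells make androgens and granulosa cells aromatize them. In *Xenopus*, the oocyte itself is known to carry CYP17A1 activity while the follicle cells around it supply the earlier steps.

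The study made 1 single-cell library from each of 3 ovaries of wild-type juveniles, collected between Nieuwkoop-Faber stages 62 and 66 and given no treatment. The libraries are called ovaries 1, 2 and 3, and all of them belong to 1 group, so the comparisons are between cell types of the same ovaries. The labels give germline cells as the cell type, but somatic cells were present in every library. The 10x Genomics 3′ assay counts unique molecular identifiers (UMIs), 1 for each captured RNA molecule.

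Of 19253 cell barcodes, 17147 passed the study's limits of 100 to 8000 genes and at most 1.5% mitochondrial UMIs, and 8190 of these were germline and 8957 somatic. Germline cells numbered 1042, 4181 and 2967 in ovaries 1, 2 and 3, and somatic cells 4572, 1172 and 3213. The libraries held 34060121 to 54585110 UMIs, and pairs of libraries shared 6 to 16 barcode sequences. The median depth was 2172 to 5856 UMIs in germline cells and 1581 to 2900.5 UMIs in somatic cells. Cell groups were rebuilt from the counts and named "-like" from marker genes, and groups that no marker list named are given by number. Cells of one ovary are not replicates, so levels are given per ovary, in the order ovary 1, 2 and 3. A level is the mean over cells of UMIs per 10000 UMIs of the cell, and a sum is all UMIs of the gene in a cell group, given as a share of all UMIs of that group in CPM, where 1 CPM is 0.01 UMIs per 10000.

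*cyp19a1.L* and *cyp11a1.S* were somatic genes in all 3 ovaries, *cyp17a1.L* was shared between oocytes and somatic cells, and *star* was close to undetected in the cells that passed the limits. Over these cells *cyp19a1.L* had 2123 UMIs, *cyp11a1.S* 823, *cyp17a1.L* 186, *star.L* 33 and *star.S* 18. Those of *cyp17a1.L* were 117, 7 and 62 in ovaries 1, 2 and 3. Of its 350 UMIs in all barcodes, 158 lay in cells over 8000 genes, 157 of them in ovary 1. The parts given next leave these out. The somatic part was 96.4% for *cyp19a1.L*, 93.6% for *cyp11a1.S*, 44.6% for *cyp17a1.L*, 72.7% for *star.L* and 83.3% for *star.S*. These parts depend on depth. Over all genes, somatic cells held 16703238, 5125112 and 7216625 UMIs and germline cells 7365239, 37455290 and 19647193 in ovaries 1, 2 and 3. Cells with UMIs of at least 2 of the 4 steps were rare, at 2.33%, 0.897% and 1.197% of cells in ovaries 1, 2 and 3. Of all cells 244 held 2 steps, 8 held 3 and 1 held all 4. The single cell with 4 was in germline cluster 5. There all 12 cells with *cyp19a1.L* also held a UMI of the follicle cell markers *foxl2*, *amh* or *inha.L*.

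**Figure D1:**
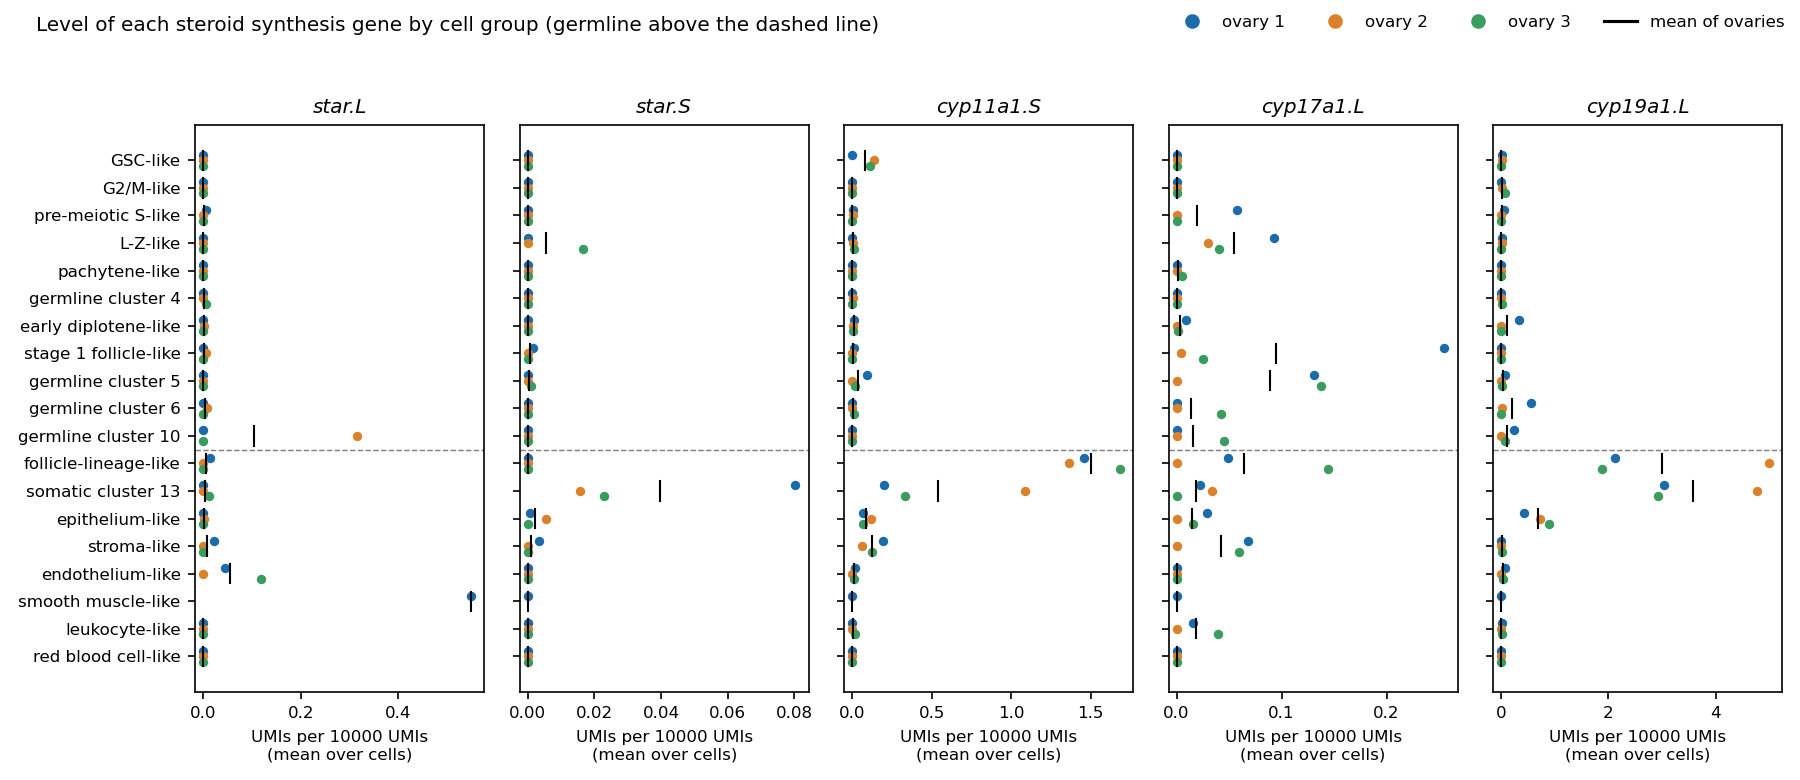
Level of each gene as UMIs per 10000 UMIs, mean over the cells of a group, on a linear x axis that differs between genes. Points are ovaries with at least 10 cells of the group, bars are the mean of the ovaries, and germline groups stand above the dashed line. *cyp11a1.S* peaks in follicle-lineage-like cells, *cyp19a1.L* in these and in somatic cluster 13, and *cyp17a1.L* has points above 0 on both sides of the line.

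The first comparison set the germline against the soma of each ovary. *cyp19a1.L* had sums of 4.89, 0.400 and 1.27 CPM in germline cells, against 62.5, 89.9 and 75.1 in somatic cells. Every somatic sum was above every germline sum, and the gene was lower in the germline by edgeR's quasi-likelihood test (log2 fold change -6.07 ± 0.80 SE, adjusted p = 0.00085, n = 3 ovaries). *cyp11a1.S* had 2.99, 0.427 and 0.763 CPM in germline cells, against 23.8, 22.8 and 35.3 in somatic cells. These groups did not overlap either, and the gene was lower in the germline (log2 fold change -5.29 ± 0.66, adjusted p = 0.00069). *cyp17a1.L* had 8.42, 0.160 and 1.78 in germline cells, against 3.29, 0.195 and 3.74 in somatic cells. It was higher in the germline of ovary 1 and lower in that of ovaries 2 and 3, and was not called (log2 fold change -0.48 ± 1.202, adjusted p = 0.758). Thus 2 of the 3 genes tested were called, in a comparison that called 48.6% of 23278 genes. Both *star* homeologs had too few UMIs for edgeR's filter on low counts. Without that filter, *star.L*, with 0.136, 0.187 and 0.0509 CPM in germline cells, against 0.958, 0.585 and 0.693 in somatic cells, was lower in the germline (-3.17 ± 0.77, adjusted p = 0.0084, 33.7% of all genes called). *star.S*, with 3 germline and 15 somatic UMIs, was lower too (-3.50 ± 1.13, adjusted p = 0.032). By ovary these were 1, 0 and 2 germline and 12, 2 and 1 somatic UMIs. The sums were 0.136, 0 and 0.102 CPM in germline cells, against 0.718, 0.390 and 0.139 in somatic cells. Most of the somatic UMIs were thus from ovary 1, and 11 of them lay in somatic cluster 13.

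Of the *cyp17a1.L* UMIs in the germline, most were in the stage 1 follicle-like group, oocytes that express egg coat genes such as *zp4.L*, but only in ovary 1 was the sum there higher than at any other germ cell stage. Its sums there were 19.2, 0.521 and 2.12 CPM, from 51, 1 and 18 UMIs in 136, 71 and 332 cells. Ovary 1 stood above the others, and the exact 95% Poisson intervals, which cover counting error only, were 14.3 to 25.3 in ovary 1, 0.0132 to 2.91 in ovary 2 and 1.26 to 3.35 in ovary 3. With the cells over 8000 genes added to their closest group, an alternative chosen after the data were seen, the sums were 6.64, 0.282 and 1.46 CPM, with an interval of 5.77 to 7.61 in ovary 1, which still stood above the others. The gene was found in 24.3%, 1.41% and 5.12% of these cells, at median depths of 17316, 21281 and 21909.5 UMIs. Leukocyte-like cells, which should lack it, held it in 0.752%, 0 and 0.366% of cells at median depths of 1782, 1140 and 1499 UMIs. After thinning each cell to 1000 UMIs, which kept every stage 1 follicle-like cell, the shares of stage 1 follicle-like cells were 0.735%, 0 and 0.301%, against 0 in the 328, 74 and 199 leukocyte-like cells left. The shares above 0 were 1 cell each, from 1 random draw, too few to tell these groups apart. The sums of leukocyte-like cells were 3.53, 0 and 2.35 CPM, from 3, 0 and 1 UMIs. Only in ovary 1 was the interval of the oocyte sum above theirs, 0.727 to 10.3, and with the cells over 8000 genes added the intervals overlapped there too.

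Over the germ cell stages *cyp17a1.L* appeared in more than 1 step. GSC-like cells, named after germline stem cells, and dividing G2/M-like cells had 0 UMIs in every ovary. The limit that a count of 0 allows, 3 counts, was 7.09, 8.09 and 16.5 CPM in GSC-like cells, so a level like that of the L-Z-like cells described next was not detectable there in any ovary. Pre-meiotic S-like cells, which replicate DNA before meiosis, had 1, 0 and 0 UMIs. Leptotene-zygotene-like (L-Z-like) cells, which pair their chromosomes, had 3, 5 and 4 UMIs, or 5.87, 3.25 and 5.15 CPM. All 3 ovaries were higher at the L-Z-like stage than at the stage before. Pachytene-like cells then had 0, 0 and 1 UMIs in 299119, 4622186 and 1091364 UMIs, and germline cluster 4 had none. A count of 0 allows up to 10.03 CPM in the pachytene-like cells of ovary 1, so a drop from the L-Z-like sum was not detectable there, and up to 0.649 CPM in those of ovary 2, which is below the L-Z-like sum. Early diplotene-like cells, which begin to form follicles, had 1, 0 and 1 UMIs, or 1.85, 0 and 0.191 CPM. The gene was thus seen in L-Z-like cells of all ovaries, at sums not told apart from those of leukocyte-like cells. It was at 0 to 1 UMIs in pachytene-like and early diplotene-like cells, and was seen again in stage 1 follicle-like oocytes, in ovary 2 with 1 UMI.

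No member passed edgeR's filter on low counts in the fit of the stages, so *cyp17a1.L* was tested without that filter, where 36731 genes were tested. It was higher in stage 1 follicle-like than in early diplotene-like cells (log2 fold change 5.34 ± 0.95, adjusted p = 9.2e-07), in a contrast that called 13.8% of genes. The groups overlapped, because the stage 1 sum of ovary 2 was below the early diplotene-like sum of ovary 1. Each ovary was higher in its own stage 1 cells, but in ovary 2 this was 1 UMI against 0. The call held without each ovary in turn, at log2 fold changes of 4.27 to 6.07 and adjusted p of 0.00037 to 0.0025, in fits that were added after the data were seen. It was also higher in L-Z-like than in pre-meiotic S-like cells (3.35 ± 1.207, adjusted p = 0.041, 14.4% of genes called) and lower in pachytene-like than in L-Z-like cells (-3.89 ± 1.18, adjusted p = 0.034, 3.54% called). Both of these calls were lost without any one of the ovaries, at adjusted p of 0.079 to 0.234 and 0.101 to 0.643. Between early diplotene-like and pachytene-like cells it was not called (0.01, adjusted p = 1, 20.5% called). With 1, 0 and 1 UMIs against 0, 0 and 1, the counts are too few to show that the gene did not change.

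The somatic steps were also seen in early diplotene-like cells. *cyp19a1.L* had 5, 6 and 4 UMIs there, or 9.25, 0.348 and 0.762 CPM, against none in pachytene-like cells of any ovary. *cyp11a1.S* had 2, 7 and 2 UMIs, or 3.70, 0.406 and 0.381 CPM, also against none. A count of 0 in pachytene-like cells allows up to 10.03, 0.649 and 2.75 CPM, above the early diplotene-like sum of both genes in every ovary, so a rise was not detectable at this depth. The markers of follicle cells in germline cells that hold these genes are given further on.

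*cyp17a1.L* was also found in germline cluster 5. In another low-UMI group, germline cluster 6, with a median of 714 to 1122 UMIs per cell, it had 0, 0 and 1 UMIs. Germline cluster 5, which has a median of 860 to 2254 UMIs per cell, had 6, 0 and 8 UMIs, or 9.85, 0 and 9.14 CPM. Follicle-lineage-like cells had 4.04, 0 and 8.53 CPM and leukocyte-like cells 3.53, 0 and 2.35. The 14 cells of cluster 5 with a UMI were deeper, with a median of 2205 UMIs, against 958 in those without. Cluster 5 was then set against the oocytes. In ovary 3 the cluster 5 sum was above the 2.12 of stage 1 follicle-like oocytes. In ovary 1 it was below the 19.2 there, but with the cells over 8000 genes added the order turned, with 8.70 in cluster 5 and 6.64 in the oocytes. The 11 cells of this cluster in ovary 2 were too few to detect such a level, since a count of 0 there allows up to 214 CPM.

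Within the stage 1 follicle-like oocytes of ovary 1 the *cyp17a1.L* sum was lower in cells with more UMIs. There, with the cells over 8000 genes added, it was 49.4 CPM in cells under 10000 UMIs, 16.4 in cells of 10000 to 30000, 13.8 in cells of 30000 to 100000 and 2.49 in cells of 100000 or more. The exact 95% intervals of the lowest and the highest range, 25.5 to 86.3 and 1.86 to 3.27, did not overlap. The share of these cells with a *cyp17a1.L* UMI was instead higher in the deeper ranges, at 21.6%, 22.5%, 46.6% and 43.9%. The sum divides by all UMIs of the cells, so its fall does not show fewer *cyp17a1.L* UMIs per cell. In ovary 2 the 4 sums were 0, 0, 0.506 and 0, from 1 UMI. In ovary 3 they were 0, 3.23, 0.936 and 0, and the interval of the range from 10000 UMIs, 1.72 to 5.53, was above that of the highest, 0 to 1.51. The ranges hold different cells of 1 ovary each, and the relation was not tested over ovaries.

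**Figure D2:**
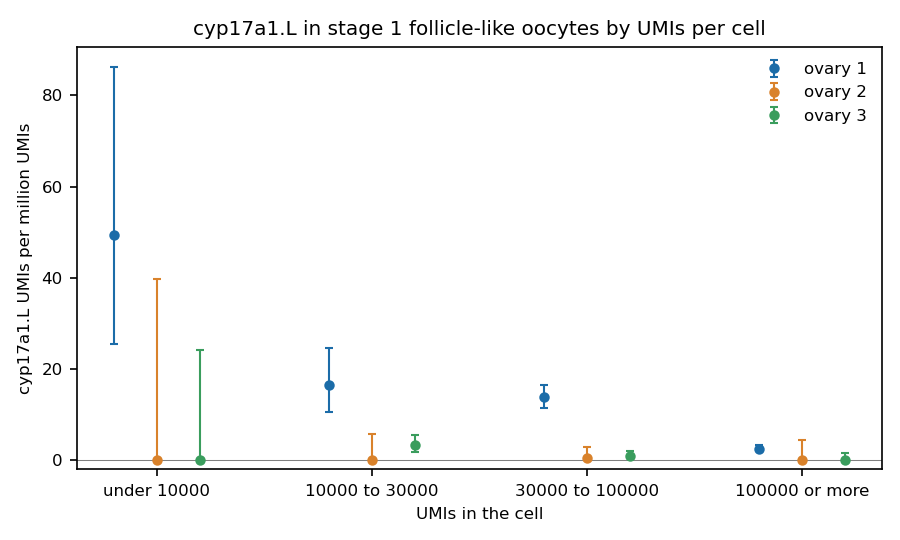
*cyp17a1.L* in CPM (y axis, linear) in stage 1 follicle-like oocytes of 4 ranges of UMIs per cell (x axis), with cells over 8000 genes added to their closest group. Points are ovaries and bars are exact 95% Poisson intervals, which cover counting error only. Ovary 1 falls from 49.4 to 2.49 over the ranges, while ovaries 2 and 3 stay between 0 and 3.23. CPM divides by all UMIs of the cells, and the share of cells with a UMI did not fall with it in ovary 1.

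Some genes that act on steroids changed at the stages around follicle formation. *hsd17b3.L*, whose product in mammals makes testosterone from androstenedione, had 14.8, 58.0 and 22.9 CPM in early diplotene-like cells, against 0, 1.08 and 0.916 in pachytene-like cells. It was higher in early diplotene-like cells of every ovary (log2 fold change 5.57 ± 0.70, adjusted p = 3.6e-07). *sult1e1.L*, an estrogen sulfotransferase by name, had 26.8, 33.9 and 38.2 in stage 1 follicle-like cells, against 7.40, 2.49 and 16.6 in early diplotene-like cells. It had also been higher in early diplotene-like than in pachytene-like cells (3.74 ± 0.84), and was higher again at stage 1 (2.14 ± 0.53, adjusted p = 0.0037). Of the 15 genes tested from a list of dehydrogenases, reductases and other steroid P450s, 4 were higher and 5 lower in early diplotene-like than in pachytene-like cells, where 38.5% of all genes were called. Between stage 1 follicle-like and early diplotene-like cells 1 of these 15 was higher and 1 lower. Of the 9 steroid receptors tested, 7 were lower in this second contrast, where 26.0% of all genes were called and 13.5% were lower. Their median log2 fold change was -1.90, beside -0.06 over all genes. *ar.L*, the androgen receptor, fell by 2.84 and *nr3c2.L*, the mineralocorticoid receptor, by 2.99 on the log2 scale.

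*cyp11a1.S* was a gene of the follicle-lineage-like cells, the group that carries *foxl2*, *amh* and *inha.L* as granulosa cells do. Its level there was 1.46, 1.37 and 1.68 UMIs per 10000 in the 3 ovaries (1.501 ± 0.164, SD, n = 3). The gene was found in 23.9%, 37.5% and 26.0% of these cells at median depths of 1350, 3863 and 1307.5 UMIs, and in 13.4%, 5.26% and 16.5% of the 464, 38 and 328 cells deep enough to be thinned to 1000 UMIs. In leukocyte-like cells the shares were 0, 0 and 0.366%. Somatic cluster 13 came next with 0.1996, 1.09 and 0.334, then stroma-like cells with 0.191, 0.062 and 0.124 and epithelium-like cells with 0.070, 0.120 and 0.067. The range of stroma-like cells overlapped that of epithelium-like cells, and endothelium-like cells had at most 0.019. Follicle-lineage-like cells held 51.4% of all *cyp11a1.S* UMIs that passed the limits. In ovary 2, barcodes over the mitochondrial limit held 134 of the 267 *cyp11a1.S* UMIs, in 69 cells. They held 6 of 426 in ovary 1 and 30 of 300 in ovary 3. For *cyp19a1.L* they held 154 of 631 in ovary 2.

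Against all other somatic cells of the same ovary, *cyp11a1.S* was higher in follicle-lineage-like cells, with 133, 168 and 178 CPM there, against 13.1, 16.3 and 10.9 in the others. The groups were far apart (log2 fold change 3.39 ± 0.28, adjusted p = 0.0012), although without ovary 3 the adjusted p was 0.060. It was lower in epithelium-like cells (-1.94 ± 0.24, adjusted p = 0.0014), in leukocyte-like cells (-5.33 ± 0.79, adjusted p = 0.00069) and in endothelium-like cells (-2.95 ± 0.58, adjusted p = 0.0055), the last with an adjusted p of 0.117 without ovary 1. In stroma-like cells it had 21.4, 8.29 and 11.5, against 24.9, 24.3 and 46.9 in the other somatic cells, and was not called (-0.96 ± 0.43, adjusted p = 0.184). With the ovary as a replicate block, that is, with each ovary paired with itself, it was called there (-0.999 ± 0.334, adjusted p = 0.037). Some genes of the pathway were among those that formed the cell groups. With all of them left out of the grouping, the log2 fold change of *cyp11a1.S* in follicle-lineage-like cells was 3.32 ± 0.27 and that of *cyp19a1.L*, described next, 1.90 ± 0.31, both still called.

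*cyp19a1.L* was high in follicle-lineage-like cells and in somatic cluster 13, a smaller group of 346 cells that also holds *foxl2* and *inha.L* but little *amh*. The level was 3.04, 4.77 and 2.92 UMIs per 10000 in cluster 13 (3.57 ± 1.03, SD, n = 3) and 2.13, 4.98 and 1.88 in follicle-lineage-like cells (3.00 ± 1.72). These ranges overlapped, and the order of the groups was reversed in ovary 2. In cluster 13 the gene was found in 63.7%, 68.8% and 51.6% of cells at median depths of 4352, 5024 and 1888 UMIs, and in 23.8%, 33.3% and 26.0% of the 214, 45 and 50 cells left after thinning. Leukocyte-like cells, in contrast, held it in 0.501%, 0 and 0.366%. Epithelium-like cells had a lower level of 0.431, 0.733 and 0.899, but through their 2605 cells they held the largest share of the UMIs that passed the limits, 38.7%, beside 28.5% in follicle-lineage-like cells and 27.8% in cluster 13.

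Against the other somatic cells *cyp19a1.L* had 250, 464 and 318 CPM in cluster 13, against 43.2, 70.1 and 66.1. It was higher there in each ovary (log2 fold change 2.66 ± 0.29, adjusted p = 0.0007). In follicle-lineage-like cells it had 215, 423 and 184, against 47.6, 75.0 and 56.5 in the other somatic cells. It was higher there too (1.97 ± 0.31, adjusted p = 0.0067), but with adjusted p of 0.095 without ovary 1 and 0.118 without ovary 3. It was lower in stroma-like cells (-5.69 ± 0.38, adjusted p = 7.8e-05), leukocyte-like cells (-4.89 ± 0.48, adjusted p = 5.6e-05) and endothelium-like cells (-2.99 ± 0.46, adjusted p = 0.0011). In epithelium-like cells it was not called (-0.57 ± 0.38, adjusted p = 0.429), with 45.2, 65.0 and 90.7 there, against 74.9, 162 and 65.0 in the others. Red blood cell-like cells had 0 UMIs of every member in all 3 ovaries, and a count of 0 in the 100 cells of this group allows up to 31.9 to 113 CPM. This contrast called 10.0% of all genes.

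Read against the share of genes called, the follicle-lineage-like contrast called 2 of 3 members tested and 7.51% of all genes, cluster 13 called 1 of 3 and 2.09%, with *star.S* left out of this count, epithelium-like cells 1 of 2 and 14.2%, stroma-like cells 1 of 3 and 17.7%, endothelium-like cells 2 of 2 and 12.6%, and leukocyte-like cells 2 of 2 and 25.5%. The names of the somatic groups have limits. A UMI of *foxl2*, *amh* or *inha.L* was found in 88.7% of follicle-lineage-like cells and 85.5% of cluster 13 cells, but also in 67.5% of epithelium-like and 20.1% of stroma-like cells, against 0.876% of leukocyte-like cells. The summed level of 15 follicle markers was 16.1 to 28.8 per 10000 in follicle-lineage-like cells and 13.5 to 19.2 in cluster 13. In ovaries 1, 2 and 3, 3, 6 and 3 of these markers were at 0 in follicle-lineage-like cells, and 3, 6 and 5 in cluster 13. The markers did not go together in cluster 13. There *inha.L* had a mean level of 6.85, beside 6.28 in follicle-lineage-like cells. *amh.L* had 0.049, beside 1.78 in follicle-lineage-like and 0.448 in epithelium-like cells, and *amh.S* 0.070, beside 0.898 and 0.211.

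**Figure D3:**
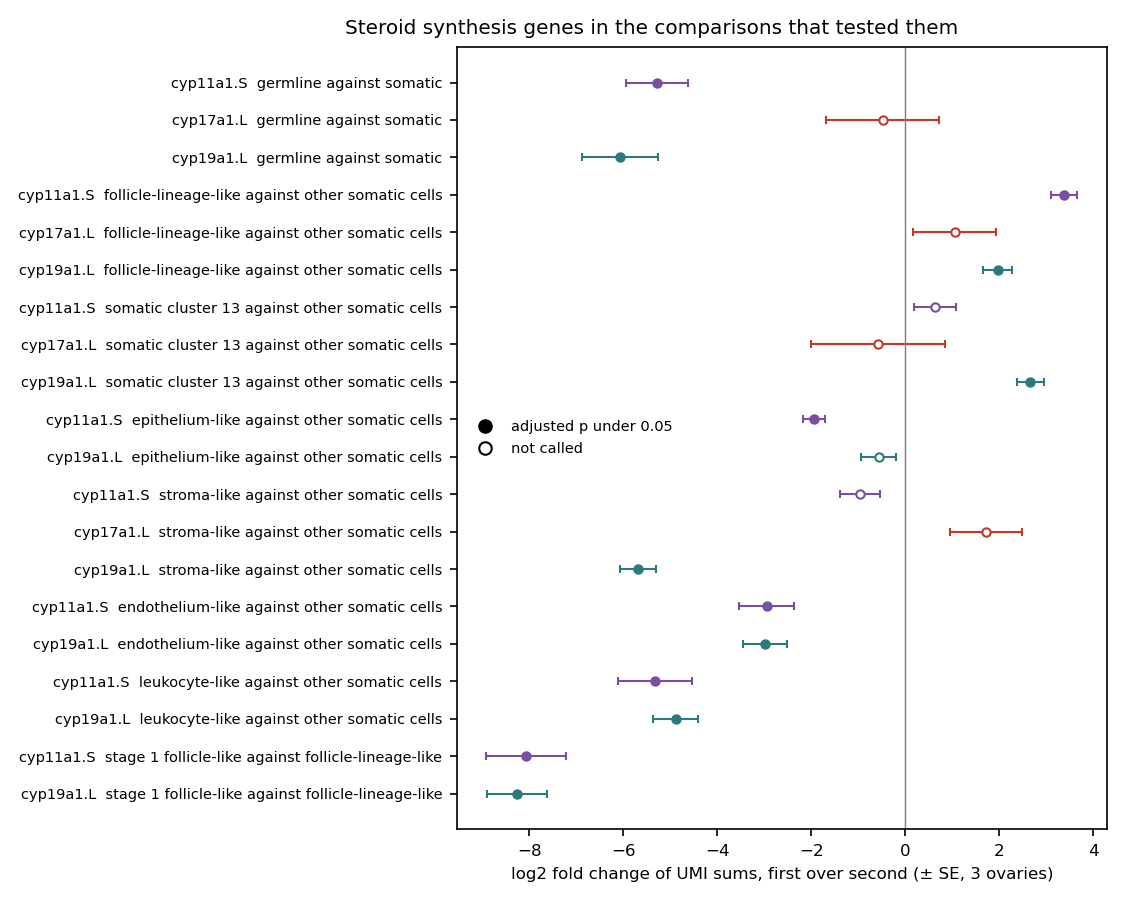
Log2 fold change of UMI sums (x axis) for each member in the cell group comparisons that tested it. The cell group named first is over the one named second. Left out are *star.S* in cluster 13 and red blood cell-like cells, where all members were at 0. Bars are ± SE, derived from the test statistic of the fit over 3 ovaries. Filled points have an adjusted p under 0.05. *cyp11a1.S* and *cyp19a1.L* lie left of 0 in germline, endothelium-like and leukocyte-like cells and right of 0 in follicle-lineage-like cells, while no point of *cyp17a1.L* is filled.

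Set against follicle-lineage-like cells directly, stage 1 follicle-like oocytes had far less *cyp11a1.S* and *cyp19a1.L*. *cyp19a1.L* had 1.89, 0 and 0.588 CPM in stage 1 follicle-like cells, against 215, 423 and 184 in follicle-lineage-like cells (log2 fold change -8.27). *cyp11a1.S* had 2.26, 0 and 0, against 133, 168 and 178 (-8.07). Both passed the filter on low counts only through the follicle-lineage-like cells, so no test of them is given. The contrast called 56.9% of all genes. Other genes of this contrast that were near 0 in 1 of the groups, regulators included, share this limit. The oocyte sums were no higher than those of leukocyte-like cells for *cyp19a1.L*, which had 3.53, 0 and 2.35 there. *cyp17a1.L* did not pass the filter and, without it, was not called (0.31 ± 0.72, adjusted p = 0.743, 35.2% of all genes called), with 19.2, 0.521 and 2.12 in oocytes, against 4.04, 0 and 8.53 in follicle-lineage-like cells. It was thus higher in oocytes of ovaries 1 and 2 and lower in those of ovary 3. *hsd17b3.L* had 47.5, 23.99 and 26.4 in stage 1 follicle-like cells, against 0, 0 and 3.79 (4.38 ± 0.78, adjusted p = 0.0010), and *sult1e1.L* was higher there too (4.46 ± 0.62). All 10 regulators of the pathway that were tested were lower in the oocytes, where 26.3% of all genes were, among them the receptor of follicle-stimulating hormone (*fshr.S*, -8.89 ± 0.81; *fshr.L*, -8.47 ± 0.72) and the transcription factor gene *gata4.S* (-7.76 ± 0.72), which is also one of the follicle markers that name the group. *cyp7b1.L*, an oxysterol hydroxylase, was lower as well (-5.99 ± 0.66).

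The few germline cells with a UMI of *cyp11a1.S* or *cyp19a1.L* differed from those with *cyp17a1.L* in the markers they carried. Of the 41 germline cells with *cyp11a1.S*, 25 (61.0%) also held a UMI of *foxl2*, *amh* or *inha.L*, against 195 of 8149 (2.39%) without it. Of the 56 with *cyp19a1.L*, 25 (44.6%) held one, against 195 of 8134 (2.40%). Of the 84 with *cyp17a1.L*, 8 (9.52%) did, against 212 of 8106 (2.62%). In stage 1 follicle-like cells the last pair was 4 of 51 (7.84%) with *cyp17a1.L*, against 33 of 488 (6.76%) without. In germline cluster 5 it was 3 of 14 (21.4%), against 43 of 779 (5.52%). There 12 of 13 cells with *cyp11a1.S* and 12 of 12 with *cyp19a1.L* held a marker. Over all germline cells, those with a UMI were deeper, with medians of 10412, 11289 and 13215.5 UMIs for *cyp11a1.S*, *cyp19a1.L* and *cyp17a1.L*, against 3906 to 3921 for those without. Their doublet scores from Scrublet, which compares each cell with simulated cell pairs, were also often high, since 20 of the 41 cells with *cyp11a1.S* and 20 of the 56 with *cyp19a1.L* were in the top 5% of their library, against 340 of those without each gene, while 6 of the 84 with *cyp17a1.L* were. Follicle markers, depth and doublet scores thus moved with the germline UMIs of *cyp11a1.S* and *cyp19a1.L*, and their part in these UMIs was not tested. GSC-like cells held 7 UMIs of *cyp11a1.S* in 7 of 162 cells, at 0, 13.5 and 11.01 CPM, which is below the 22.8 and 35.3 of all somatic cells in ovaries 2 and 3. In those ovaries stroma-like cells had 8.29 and 11.5 and epithelium-like cells 14.7 and 11.3, while all germline cells had 0.427 and 0.763.

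**Figure D4:**
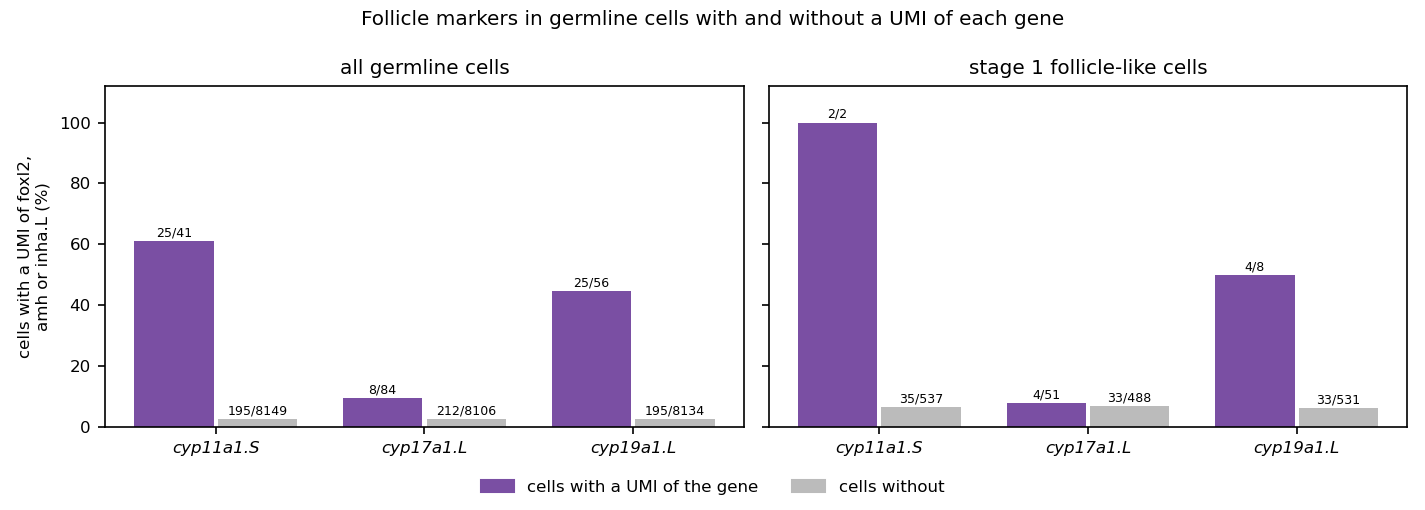
Share of cells (y axis, percent) that hold a UMI of *foxl2*, *amh* or *inha.L*, among cells with a UMI of each gene (purple) and cells without (grey), for all germline cells and for stage 1 follicle-like cells, over the 3 ovaries. Numbers above the bars are cells with a marker over all cells of the bar. The purple bar is 61.0% for *cyp11a1.S* and 44.6% for *cyp19a1.L* in all germline cells, and 9.52% for *cyp17a1.L*.

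Outside the germline, stroma-like cells, the group of collagen genes, held most *cyp17a1.L* UMIs, 46 in 3609 cells. Their level was not the highest, at 0.0426 ± 0.0371 UMIs per 10000, beside 0.0645 ± 0.0735 in follicle-lineage-like cells (SD, n = 3 each), and these ranges overlapped. The gene had 32, 0 and 14 UMIs in stroma-like cells, or 6.41, 0 and 5.96 CPM, against 1.96, 0.215 and 2.67 in the other somatic cells. Ovaries 1 and 3 were higher in stroma-like cells and ovary 2, with no UMI in 266 cells, was not, and the difference was not called (log2 fold change 1.72 ± 0.77, adjusted p = 0.184). With the ovary as a replicate block it was called (1.51 ± 0.44, adjusted p = 0.019), in a fit that called 30.6% of all genes. Of the 42 stroma-like cells with *cyp17a1.L*, 8 (19.05%) also held *cyp11a1.S*, against 3.14% of the 3567 without, at median depths of 2493 and 2023 UMIs. UMIs of oocyte genes were present in many stroma-like cells, and 71.4% of those with *cyp17a1.L* and 57.9% of those without held a UMI of 9 oocyte genes. Per 1000 UMIs of those 9 genes, *cyp17a1.L* had 22.9, 0 and 4.27 UMIs in stroma-like cells, against 2.53, 0.0867 and 0.261 in stage 1 follicle-like oocytes. The proportion in the stroma-like cells of ovaries 1 and 3 was thus above that in the oocytes. It was also above it in leukocyte-like cells, at 13.95, 0 and 1.71 from 4 UMIs in all.

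A 3-beta-hydroxysteroid dehydrogenase is needed along this pathway to make progesterone and androstenedione, and *hsd3b1.L*, which encodes one by its name, was added after its values had been seen. It had 43 UMIs, all somatic, of which stroma-like cells held 20, 2 and 9, or 4.004, 4.15 and 3.83 CPM. None of the 42 stroma-like cells with *cyp17a1.L* held it, where 0.355 would if the UMIs fell independently, so the cells are too few to tell. Somatic cluster 13 had 5 UMIs of *hsd3b1.L*, with some in every ovary, at a mean level of 0.0340 ± 0.0212 (SD, n = 3). The mean level of stroma-like cells was close to this, at 0.0388 ± 0.0018. Epithelium-like cells held 6 UMIs and leukocyte-like cells 1, and in follicle-lineage-like cells none was found.

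Among other genes of the pathway, follicle-lineage-like cells differed from the other somatic cells mainly in regulators. Of 11 tested, 6 were higher, where 3.26% of all genes were, with a median log2 fold change of 0.98 beside -0.01 over all genes. Both *gata4* homeologs are in this list and among the follicle markers. *fshr.S* had 237, 159 and 162 CPM there, against 26.5, 51.6 and 19.8 in the others (2.38 ± 0.39, adjusted p = 0.0078). *nr5a1.L*, which encodes steroidogenic factor 1, had 321, 118 and 172, against 64.1, 61.2 and 43.3 (1.74 ± 0.41, adjusted p = 0.0335). *cyp7b1.L* was higher too (2.05 ± 0.43). In cluster 13 the estrogen receptor *esr1.S* (2.20 ± 0.44, adjusted p = 0.027) and the lipoprotein receptor *ldlr.L* (1.36 ± 0.30, adjusted p = 0.042) were higher. Stroma-like cells had more *por.L*, the electron donor of CYP17A1 and aromatase (2.18 ± 0.26), less *fdxr.L*, the reductase that feeds CYP11A1 (-2.58 ± 0.28), and less *fshr.L* (-3.84 ± 0.38). *hsd11b2.L* was higher there by 4.03 ± 0.64, with 50.3, 58.0 and 10.2 CPM, against 1.88, 3.02 and 2.67.

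*star*, the first step, had 51 UMIs in all cells that passed the limits, too few for most tests, and its homeologs were found in different groups. Cluster 13 had 9, 1 and 1 UMIs of *star.S* and 0, 0 and 1 of *star.L*. *star.S* had 5.78, 3.86 and 3.88 CPM there, against 0.198, 0.205 and 0 in the other somatic cells. Each ovary was higher in cluster 13, but the gene passed the filter only through this cluster, so no test is given. Endothelium-like cells had 5, 0 and 4 UMIs and smooth muscle-like cells 3, 2 and 0, all of *star.L*. Without the filter *star.L* was called in endothelium-like cells (3.83 ± 0.97, adjusted p = 0.0016, 8.51% of all genes called), and this was lost with the cells over the mitochondrial limit added, also chosen after the data were seen (-0.58 ± 1.68, adjusted p = 0.903). This group held the largest share of *star.L* UMIs, 27.3%, in 6 cells. No such fit of the other somatic groups is given here. The p-value thus belongs to the group with the most UMIs, tested on those same UMIs, and is not read as a result. In ovary 2 endothelium-like cells had no *star.L* in 134114 UMIs. Follicle-lineage-like cells, which held most *cyp11a1.S*, had 2 UMIs of *star.L* and none of *star.S*.

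Most *star* RNA of the series lay outside the limits, in ovary 2. Barcodes over 1.5% mitochondrial UMIs held 397 *star* UMIs in 21 cells of ovary 2, against 2 in ovary 1 and 1 in ovary 3. Of all 410 *star* UMIs of ovary 2, 387 (94.4%) were in 14 cells with at least 5 each, a set chosen after the values were seen. These cells had 6 to 114 *star* UMIs, with a median of 22.5, a median depth of 1533 UMIs and 4.59% to 11.9% mitochondrial UMIs, and 13 of the 14 fell into 1 cluster when all barcodes were clustered. *star.L* gave 284 of their UMIs and *star.S* 103, a share of 73.4% for *star.L* (exact 95% interval 68.7% to 77.7%). They also held 239 UMIs of *fdxr.L*, 225 of *fdx1l.2.L*, 38 of *cyp11a1.S* and 21 of *hsd3b1.L*, and none of *cyp17a1.L*, *cyp19a1.L*, *foxl2* or *amh.L*. Of the 7 names of the interrenal (adrenal cortex) list 2 were found, and both were present. There were 71 UMIs of *cyp21a2.1.L*, the steroid 21-hydroxylase, in 12 cells and 20 of *mc2r.L*, the receptor of adrenocorticotropic hormone, in 9. *cyp21a2.1.L* was not confined to these cells. Among cells that passed the limits, 1132 follicle-lineage-like cells held 40 UMIs of it and 2605 epithelium-like cells 34. The cells are given no type here, since they come from 1 ovary and from outside the limits.

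**Figure D5:**
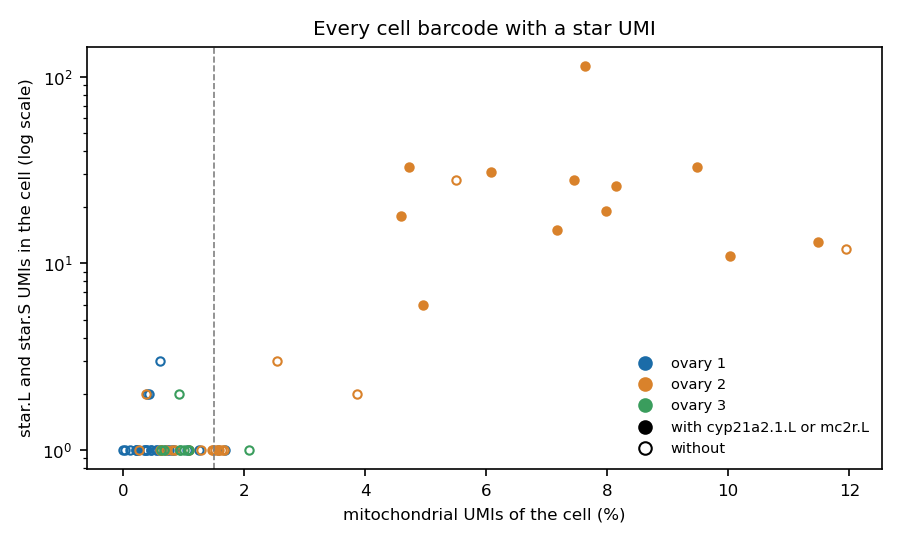
Every cell barcode with a *star* UMI, by its mitochondrial UMIs in percent (x axis) and its summed *star.L* and *star.S* UMIs (y axis, log scale). Colours are ovaries, filled points also hold *cyp21a2.1.L* or *mc2r.L*, and the dashed line is the limit of 1.5%. The 14 cells with 6 to 114 UMIs are all of ovary 2 and lie between 4.59% and 11.9%.

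*cyp11a1.S* and *cyp19a1.L* were found together in some somatic cells. In follicle-lineage-like cells 287 of 1132 held the first and 370 the second, and 135 held both, where 95.4 would if the UMIs fell independently. In epithelium-like cells 44 held both, beside 25.6, and in cluster 13 33, beside 26.6. Cells with more UMIs hold more of both genes, so these counts describe the cells and were not tested. Across 55 points, each a cell group in an ovary, the genes with the level most like that of *cyp11a1.S* were *lpl.S* and *inhba.L* (Pearson r of log2 levels 0.904 and 0.900). For *cyp19a1.L* the closest were *MGC154351* (0.912) and *LOC121400055* (0.892). For *cyp17a1.L*, with 186 UMIs, the highest r was 0.755 (*LOC121402260*). The points share libraries and depth, so these values are a description.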

How the data were processed

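Cell Ranger 8.0.1, named in the submitters' processing notes, produced UMI counts per gene and cell barcode, which the authors deposited without normalization. The genome build is not given in the sources used here, so no positions are given, and sequences were not used. Features without a name held 0.363% to 0.443% of UMIs and were left out. Kept barcodes had between 100 and 8000 genes, and their share of UMIs from 13 mitochondrial genes did not exceed 1.5%. They were integrated by canonical correlation analysis and clustered with Seurat 5.3.0 (resolution 1 for all cells, 0.5 for the germline, which had a summed *ddx4* and *dazl* level of at least 5 per 10000 UMIs). The members and the gene lists were chosen with earlier results of these data known. In this clustering 2 of the 5 members were among the 2000 variable genes, and leaving the pathway genes out put 97.6% of cells in the same group. Scrublet (scanpy 1.11.5) marked 48, 6 and 32 cells, too few in ovary 2 to have worked there, so marked cells were left out only as an alternative.

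UMIs were summed per ovary and cell group, leaving out groups under 10 cells in an ovary, and each contrast of 3 ovaries was fitted with the quasi-likelihood test of edgeR 4.0.16 (TMM, filterByExpr, R 4.3.3), with Benjamini-Hochberg adjustment over all genes tested and a threshold of 0.05. All p-values are two-sided. Each SE is the absolute log2 fold change divided by the square root of the F statistic of the test. It is not a separate estimate of the spread and has little meaning where the log2 fold change is close to 0. Sums of the same ovary are paired by the animal. The main fits had no term for the ovary and so did not use this pairing, which only the fits with a replicate block did. Their deviations correlated at 0.410, 0.517 and 0.487 for germline and soma, and at 0.263, 0.250 and 0.166 for stage 1 follicle-like and follicle-lineage-like cells. Besides the members, up to 4 genes per list were eligible to be named, those called with the largest change, at least 20 counts per sum on average and the same direction in 3 of 3 ovaries. Alternatives were DESeq2 1.42.0, no filter, the ovary as a replicate block, leaving out each ovary, and other cell groupings and limits. For shares, cells were thinned to 1000 UMIs, leaving out shallower cells. Intervals are exact at 95% and cover counting error only. Reads that match both homeologs could have been split between them. Python 3.11.15 with numpy 2.4.6, scipy 1.17.1, pandas 2.3.3 and matplotlib 3.10.9 was used.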

Additional observations from a re-analysis of the deposited data

Results flagged for a closer look

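The barcodes over the mitochondrial limit of ovary 2, which the comparisons leave out, held 397 *star* UMIs, against 2 and 1 in the same barcodes of ovaries 1 and 3. The barcodes over 8000 genes, also left out, held 157 *cyp17a1.L* UMIs in 96 of 225 cells of ovary 1, against 0 in 54 cells of ovary 2 and 1 in 58 cells of ovary 3. Of those in ovary 1, 156 were in the 200 cells closest to the stage 1 follicle-like group, whose median depth was 84801.5 UMIs. In ovary 3 the 50 cells closest to that group held 1 UMI at a median depth of 81559.5 UMIs.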

How the results depend on the processing

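Of 23 member fold changes tested with the filter on low counts, 15 were called, and 10 of these were called under every alternative. The 15 include *star.S* in cluster 13, which passed the filter only through this cluster and is not read as a result. The same holds for *cyp11a1.S* and *cyp19a1.L* in stage 1 follicle-like against follicle-lineage-like cells, where both passed only through the latter. The call of *star.S* was lost with the cells over the mitochondrial limit added. The others lost are given beside the results, apart from *cyp19a1.L* in red blood cell-like cells, where it had no UMI (adjusted p = 0.0093, lost without ovary 1 or 3). Directions that turned belonged to changes that were not called, namely *cyp17a1.L* between germline and soma (-1.66 to 0.17 without each ovary in turn), and in cluster 13 *cyp11a1.S* (-0.20 to 1.13) and *cyp17a1.L* (-1.48 to 0.056). They turned without ovary 3, 2 and 3. Without the filter, *cyp17a1.L* between early diplotene-like and pachytene-like cells turned to -0.77 without ovary 1 and to -0.022 with the replicate block. Leaving out each ovary gave 5270 to 9569 genes called between germline and soma, beside 11306 with all ovaries. It gave 7737 to 19058 over the stage contrasts, beside 20751, and 5749 to 9596 over the somatic contrasts, beside 14466. Between stage 1 follicle-like and follicle-lineage-like cells it gave 4446 to 7375, beside 7183. The replicate block raised the somatic count to 24355 and changed, of the member calls in the report, only those of *cyp11a1.S* and *cyp17a1.L* in stroma-like cells. With the cells over 8000 genes added, the stage 1 follicle-like sum of *cyp17a1.L* in ovary 1 was 6.64, beside 19.2 CPM. Levels from pooled UMIs differed from the levels that were checked by less than the SD between ovaries. Leaving out 1 of 3 ovaries cannot move a mean by that SD. It was thus no check on the levels or on the share of cells with several steps. The *star.L* share of *star* UMIs stayed, without each ovary, within its exact interval of 50.1% to 77.6%, which covers counting error only. The depth limits *star* and the early stages of *cyp17a1.L*, which rest on 1 to 12 UMIs per group, and 2 ovaries hold nearly all *cyp17a1.L* in oocytes.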
